A study of Mus musculus with 16 samples.

Results

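The integrin and laminin chains of the mouse liver were taken as every gene whose symbol marks an integrin alpha chain, an integrin beta chain, or a laminin alpha, beta or gamma chain. The rule found 37 genes among the 24411 symbols counted, with 18 integrin alpha, 8 integrin beta, 5 laminin alpha, 3 laminin beta and 3 laminin gamma chains. Polyadenylated liver RNA was sequenced in 4 groups of 4 libraries each. EtOH+MBV mice had the ethanol diet of the NIAAA chronic and binge model and received matrix-bound nanovesicles (MBVs), vesicles that are held within the extracellular matrix of tissues. EtOH mice had the same ethanol diet and received vehicle. PF+MBV mice were pair-fed without ethanol and received MBVs, and PF mice were pair-fed and received vehicle. The sources used here give no strain, sex, age, vesicle source, dose or days of feeding, and do not say whether the libraries of a group came from separate mice. If they did not, the p-values measure only the spread between libraries. Values of single libraries are given in the order of their numbers, 1 to 4, within each group.

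Integrins are cell surface receptors made of an alpha and a beta chain, and the pairing sets the ligand: some pairs hold collagens, some laminins, some fibronectin and vitronectin through an RGD motif, and those of leukocytes hold adhesion molecules on other cells. Laminins are trimers of an alpha, a beta and a gamma chain that build the network of basement membranes. The normal liver sinusoid has no continuous basement membrane, while bile ducts, vessels and the capillarised sinusoid of chronic injury do have one.

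Libraries held 15.3 to 20.5 M counted reads (M stands for 1000000), and the 37 chains took 0.0502% to 0.105% of them. Counts were scaled to counts per 1000000 reads (CPM) with composition factors of 0.863 to 1.27, tested with edgeR's quasi-likelihood test in a single fit of all 16 libraries, and adjusted by Benjamini-Hochberg over 12901 tested genes; a change was called at an adjusted p under 0.05. Hepatocyte markers summed to 110541 to 181552 CPM over all libraries, against 92.9 to 190 CPM for cholangiocyte markers, 316 to 536 CPM for stellate cell and fibroblast markers and 315 to 987 CPM for Kupffer cell markers, so that hepatocyte markers led, as the liver label states. No marker list had a gene at 0 in every library. EtOH library 1 and EtOH+MBV library 1 stood apart from their groups in a principal component analysis of all genes. On the first component EtOH+MBV library 1 lay at -0.254, between the rest of its group and the pair-fed libraries. The rest of its group lay at 41.2 to 49.6 and the pair-fed libraries at -48.4 to -32.9. The cell cycle list summed to 139 CPM in EtOH library 1 and to 7.48 to 13.2 CPM in the other EtOH libraries. The chains' share of counts was also highest in EtOH library 1, at 0.105%, followed by EtOH library 2 at 0.0685%. Results of edgeR that rest on EtOH library 1 are given with and without it, while DESeq2 was run on all 16 libraries only.

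Per kilobase of exon, Itgb1, the beta chain that most alpha chains pair with, was the most abundant chain in every group. It stood at 56.6 CPM per kb in EtOH livers and at 50.5 ± 1.57 CPM per kb in PF livers (SD, n = 4). Itgb5, a partner of Itgav in vitronectin receptors, came next in PF livers at 18.6 ± 2.72 CPM per kb, and the fibronectin receptor chain Itga5 followed at 4.11 CPM per kb. Below them in PF livers lay Itga9 at 3.35, the leukocyte chain Itgb2 at 3.14, the laminin chain Lamc1 at 2.67, Itgav at 2.56 and the leukocyte chain Itgal at 2.41 CPM per kb. Itgb3, the beta chain of the vitronectin and platelet fibrinogen receptors, ranked 5 of the 33 tested chains in EtOH livers at 5.15 CPM per kb and 10 in PF livers at 1.38 CPM per kb. Lama5 ranked 11 in EtOH livers at 1.69 CPM per kb and 24 in PF livers at 0.509 CPM per kb, while Lama3 ranked 31 in EtOH livers and 16 in PF livers. In PF livers the lowest tested chain was the collagen receptor chain Itga2 at 0.0127 CPM per kb.

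**Figure D1:**
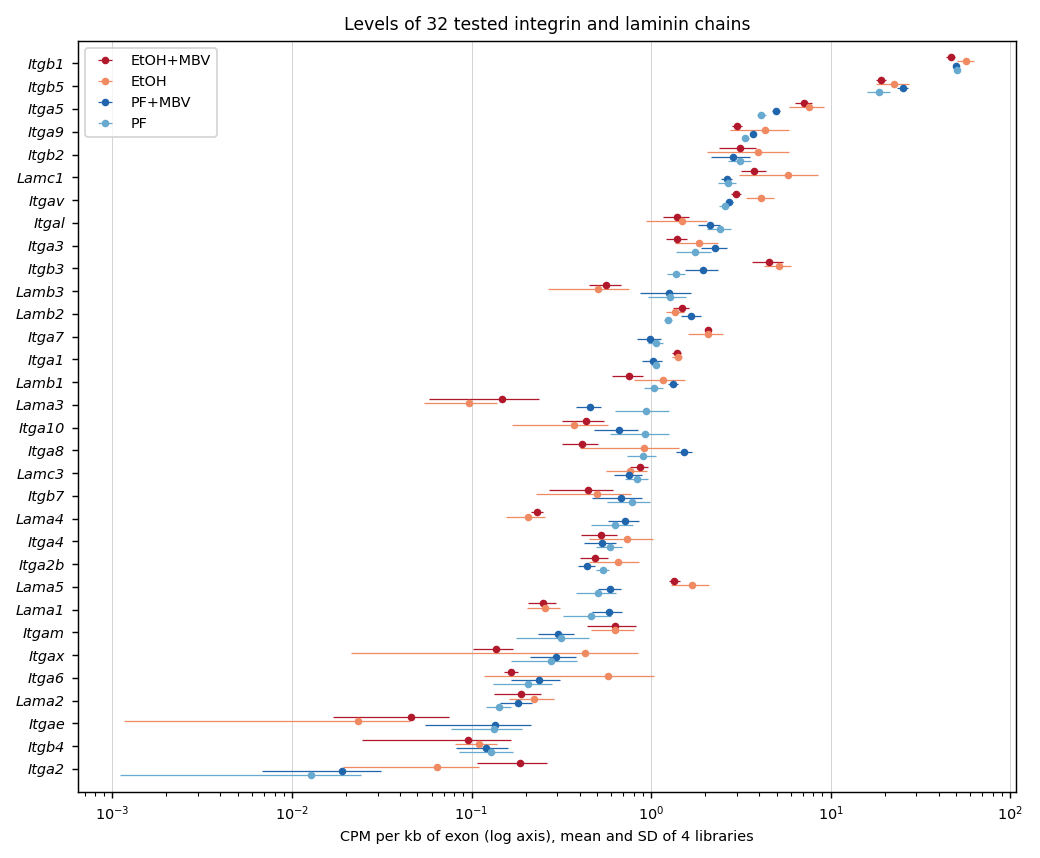
Level of 32 tested chains in CPM per kilobase of exon on a log axis, with a point for the mean and a bar for the SD of the 4 libraries of each group, and chains in order of their level in PF livers; bars that would reach 0 or below are shortened on the log axis. Itgb1 and Itgb5 lie right of the other chains in every group, and the means of Itgb3 and Lama5 in the ethanol groups lie to the right of those in the pair-fed groups.

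Of the 37 chains, 4 did not pass the filter on low counts and were not tested. Itga11, a collagen receptor chain of fibroblasts, had 0 to 9 reads per library. Itgad had 0 or 1 read, and the epithelial chain Itgb6 had 0 to 7 reads. Itgb8, an Itgav partner that can activate latent TGF-beta, had 0 to 15 reads per library. Summed over a group, Itgb8 had 15 reads in EtOH+MBV, 24 in EtOH, 26 in PF+MBV and 6 in PF libraries, and no test was made of it.

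In ethanol-fed livers without MBVs, 18 of the 33 tested chains changed against PF livers, 11 up and 7 down. The rises included Itgb3 (3.72-fold), Lama5 (3.32-fold), the laminin gamma chain Lamc1 (2.18-fold) and the fibronectin receptor chain Itga5 (1.83-fold), and the falls included the laminin chains Lama3 (9.75-fold), Lama4 (3.05-fold) and Lamb3 (2.52-fold). The chains called came to 54.5%, against 39.8% of all tested genes, of which 20.4% were higher and 19.5% lower. The groups did not overlap for 14 of the 33 chains, against 32.3% of all tested genes. Among 22 tested integrin chains 8 rose and 3 fell, with a median log2 change of 0.34; among 11 tested laminin chains 3 rose and 4 fell, with a median of 0.13. The median over all tested genes was 0.01.

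With MBVs on both diets, 16 chains changed in EtOH+MBV against PF+MBV livers, 7 up and 9 down. That is 48.5% of the tested chains, against 35.9% of all genes (19.2% higher and 16.7% lower). The groups did not overlap for 18 chains, against 39% of all genes, and the median log2 change was -0.29 over the chains and -0.01 over all genes. The EtOH against PF and the EtOH+MBV against PF+MBV comparisons share no library. Both were drawn from the single fit of all 16 libraries, however, which shares its filter, scaling and estimate of spread between them. Both comparisons called the same 7 chains higher (Itga1, Itga2, Itga5, Itga7, Itgam, Itgb3 and Lama5) and the same 5 lower (Itgal, Lama1, Lama3, Lama4 and Lamb3). With the EtOH and PF libraries fitted alone, Itgam was not called in EtOH against PF (edgeR adjusted p = 0.068). Itga2 did not pass the filter in that fit and was not tested. No chain was called in opposite directions. Calls in both comparisons in the same direction came to 36.4% of the tested chains, against 19.9% of all tested genes. Itga2 and Itgae, which passed the filter on low counts through the diet in which they were higher, are among the chains counted here, so these counts and shares are descriptions. A further 6 chains were called in EtOH against PF alone (Itga6, Itgav, Lama2 and Lamc1 up, Itga10 and Itgae down), and 4 in EtOH+MBV against PF+MBV alone (Itga3, Itga8, Itgb5 and Lamb1, all down); a call in a single comparison does not show that the comparisons differ, and the test of that difference is given with the interaction. Bulk tissue cannot tell fewer cells of a type from less RNA per cell, which holds for every value here.

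**Figure D2:**
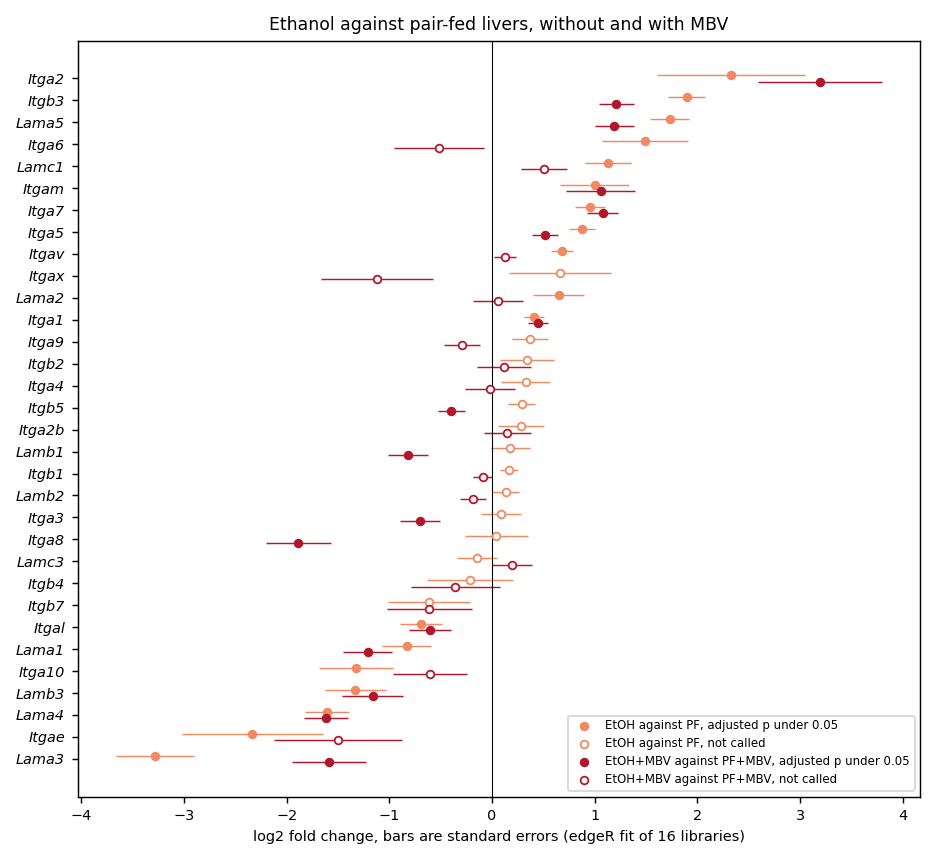
Log2 fold change of 32 tested chains for EtOH against PF and for EtOH+MBV against PF+MBV, with bars of 1 standard error from the edgeR fit and filled points for an adjusted p under 0.05. Lama5 and Itgb3 lie right of 0 and Lama3, Lama4, Lama1 and Lamb3 left of 0 in both comparisons.

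Among the laminin alpha chains, Lama5 rose and Lama4, Lama3 and Lama1 fell in both ethanol comparisons. Lama5, the chain of mature endothelial and epithelial basement membranes (GRCm38 chr2:180176373-180225859, minus strand), had 25.0, 19.8, 18.5 and 13.8 CPM in EtOH livers, against 6.84, 5.32, 7.03 and 3.98 CPM in PF livers. With MBVs it had 13.8, 15.6, 15.9 and 16.1 CPM in EtOH+MBV livers, against 7.23, 5.57, 6.30 and 7.79 CPM in PF+MBV livers. Every ethanol library lay above every pair-fed library. The log2 change was 1.73 ± 0.19 (SE; adjusted p = 7.56e-06) in EtOH against PF and 1.19 ± 0.19 (adjusted p = 0.00023) in EtOH+MBV against PF+MBV.

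Promoter sequence from RefSeq (GRCm38.p6) was at hand for 23 of the 37 chains; the 250 bases before the start of Lama5, and below those of Itga5 and Lamb3, are printed as examples of a laminin and an integrin chain that rose and a laminin chain that fell. Capitals mark matches, on either strand, to GGGCGG, the core of SP1 sites, and to GAGGAA, which holds the GGAA core of ETS sites. The Lama5 window held 4 GGGCGG matches and 1 GAGGAA match, with a GC content of 72.4%, against a median of 52.4% over the 32851 promoters of the table. Of these, 32.7% held GGGCGG and 23.3% held GAGGAA. The matches do not overlap each other, and a match is only a run of letters.
Lama5 (minus strand of chr2:180225860-180226109): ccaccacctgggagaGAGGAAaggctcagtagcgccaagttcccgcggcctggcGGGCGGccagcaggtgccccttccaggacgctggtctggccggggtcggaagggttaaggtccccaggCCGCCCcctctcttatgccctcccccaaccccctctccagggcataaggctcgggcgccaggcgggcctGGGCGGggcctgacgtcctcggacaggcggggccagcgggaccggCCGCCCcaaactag

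Lama4, the chain of endothelial basement membranes (chr10:38965515-39110188, plus strand), had 2.32, 1.92, 3.36 and 2.32 CPM in EtOH livers, against 6.84, 10.2, 7.63 and 5.53 CPM in PF livers. The EtOH+MBV livers had 3.07, 2.88, 2.67 and 2.58 CPM, against 11.1, 8.00, 8.43 and 7.05 CPM in PF+MBV livers. The groups did not overlap in either comparison, and the falls were alike in size, with log2 changes of -1.61 ± 0.22 (SE; adjusted p = 3.74e-05) in EtOH against PF and -1.62 ± 0.21 (adjusted p = 6.08e-05) in EtOH+MBV against PF+MBV. Of 12 sinusoidal endothelial markers, 8 fell and 1 rose in EtOH against PF, and 6 fell and 1 rose in EtOH+MBV against PF+MBV. That list summed to 433 to 569 CPM in EtOH+MBV, 414 to 491 in EtOH, 598 to 676 in PF+MBV and 544 to 622 CPM in PF livers. Vascular endothelial markers summed to 244 to 292 CPM in EtOH+MBV, 232 to 288 in EtOH, 304 to 337 in PF+MBV and 310 to 354 CPM in PF livers. Of these 12 markers 2 rose and 4 fell in EtOH against PF, and 1 rose and 2 fell in EtOH+MBV against PF+MBV. Their part in the change of Lama4 was not tested.

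Lama3, the alpha chain of the epithelial laminin that anchors hemidesmosomes, showed the largest fall among the chains in EtOH against PF. It had 0.678, 1.69, 0.806 and 0.967 CPM in EtOH livers, against 13.7, 9.46, 11.5 and 5.78 CPM in PF livers. With MBVs, EtOH+MBV livers had 3.02, 1.21, 0.828 and 1.32 CPM, against 4.76, 5.89, 4.01 and 4.87 CPM in PF+MBV livers. All 8 ethanol libraries lay below all 8 pair-fed libraries, while the PF+MBV libraries, apart from PF+MBV 2, also lay below those of PF. The log2 change was -3.29 ± 0.38 (SE; adjusted p = 1.05e-05) in EtOH against PF and -1.59 ± 0.36 (adjusted p = 0.00308) in EtOH+MBV against PF+MBV, and the difference between them, 1.69 ± 0.52, did not pass the limit by edgeR (adjusted p = 0.0719) and passed it by DESeq2 (DESeq2 adjusted p = 0.0216). EtOH+MBV 1, which stood apart from its group over all genes, had the highest Lama3 level of the ethanol libraries. In fits that left out a single library, the log2 change in EtOH+MBV against PF+MBV ranged from -2.12 to -1.37, always past the limit.

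Lama1, mainly an embryonic chain, had 2.71, 2.91, 2.62 and 1.74 CPM in EtOH livers, against 4.89, 6.08, 3.94 and 2.92 CPM in PF livers. In EtOH+MBV livers it had 2.25, 2.95, 2.55 and 1.95 CPM, against 7.11, 5.62, 4.89 and 4.81 CPM in PF+MBV livers. The ethanol libraries were lower with no overlap in either pair of groups, by 1.78-fold in EtOH against PF (log2 -0.83 ± 0.24, SE, adjusted p = 0.0115) and by 2.31-fold in EtOH+MBV against PF+MBV (log2 -1.21 ± 0.24, adjusted p = 0.00117). Lama2, the chain of muscle and nerve basement membranes, had 5.13, 3.37, 2.75 and 3.35 CPM in EtOH livers, against 2.75, 1.88, 2.29 and 2.42 CPM in PF livers. Its rise of 1.57-fold was at the limit (adjusted p = 0.0465) and ended in 12 of the 16 fits that left out a single library; it held without EtOH 3, EtOH+MBV 1, EtOH+MBV 4 or PF+MBV 3, and its log2 change was 0.44 without EtOH 1 (adjusted p = 0.162). In EtOH+MBV and PF+MBV livers Lama2 averaged 3.07 ± 0.891 and 2.95 ± 0.590 CPM (SD, n = 4 each).

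The mix of laminin alpha chains differed between the diets. Per kilobase, Lama5 made up 62.2% ± 3.57 of the laminin alpha level in EtOH+MBV, 67.9% ± 3.14 in EtOH, 23.6% ± 3.83 in PF+MBV and 19.0% ± 2.33 in PF livers (SD, n = 4 each). The lowest ethanol library had 57.3% Lama5 and the highest pair-fed library 28.5%. Lama3 made up 6.88% in EtOH+MBV, 4.03% in EtOH, 18.1% in PF+MBV and 34.6% in PF livers, and Lama4 made up 10.7%, 8.58%, 28.3% and 23.6% in the same order of groups. The sum of the 5 chains was 2.17 ± 0.0486 CPM per kb in EtOH+MBV, 2.47 ± 0.479 in EtOH, 2.52 ± 0.277 in PF+MBV and 2.68 ± 0.599 in PF livers, ranges that overlap except for EtOH+MBV against PF+MBV. The ratio of Lama5 to Lama4 per kilobase was 4.77, 5.74, 6.31 and 6.62 in EtOH+MBV livers, against 0.693, 0.737, 0.792 and 1.17 in PF+MBV livers. It was 11.4, 10.9, 5.83 and 6.30 in EtOH livers, against 1.06, 0.553, 0.977 and 0.762 in PF livers. These shares and ratios are not independent of the fits of the single chains.

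**Figure D3:**
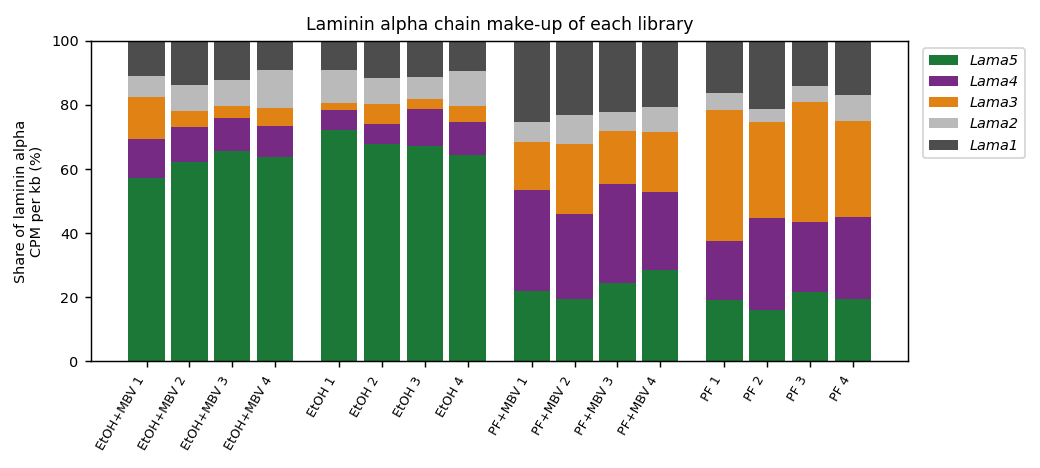
Share of each laminin alpha chain in the summed CPM per kilobase of the 5 alpha chains, as stacked bars with 1 bar per library. Lama5 fills at least 57.3% of every bar in the ethanol groups and at most 28.5% of every bar in the pair-fed groups.

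Of the laminin beta and gamma chains, Lamb3 fell in both ethanol comparisons, Lamc1 rose in EtOH against PF, and Lamb1 fell in EtOH+MBV against PF+MBV. Lamb3, the partner of Lama3 in the epithelial laminin (chr1:193207699-193343878, plus strand), had 1.65, 3.32, 5.50 and 2.97 CPM in EtOH livers, against 8.49, 6.64, 7.23 and 11.1 CPM in PF livers. The EtOH+MBV livers had 4.55, 4.15, 2.93 and 3.27 CPM, against 6.88, 6.92, 7.34 and 12.3 CPM in PF+MBV livers. The groups did not overlap, and the falls were 2.52-fold in EtOH against PF (adjusted p = 0.00252) and 2.24-fold in EtOH+MBV against PF+MBV (adjusted p = 0.00676). Cholangiocyte markers summed to 97.0 to 112 CPM in EtOH+MBV, 95.6 to 111 in EtOH, 92.9 to 112 in PF+MBV and 101 to 190 CPM in PF livers; their part in the falls of Lama3 and Lamb3 was not tested. Of the 8 tested, 1 rose and 2 fell in EtOH against PF, and 2 rose and 1 fell in EtOH+MBV against PF+MBV. The table holds 2 start windows for Lamb3, both inside the gene span given above. The window printed, before the first of these starts, held 1 GAGGAA match and no GGGCGG match, with a GC content of 58.8%, and the other window (chr1:193301993-193302242) held neither.
Lamb3 (plus strand of chr1:193301744-193301993): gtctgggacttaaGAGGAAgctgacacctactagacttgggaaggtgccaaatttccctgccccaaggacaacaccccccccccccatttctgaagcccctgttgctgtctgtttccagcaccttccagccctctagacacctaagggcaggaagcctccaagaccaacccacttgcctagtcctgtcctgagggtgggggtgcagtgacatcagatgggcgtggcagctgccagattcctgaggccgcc

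Lamc1, the gamma chain of most laminins (chr1:153218922-153332786, minus strand), had 81.1, 42.9, 31.8 and 36.7 CPM in EtOH livers, against 20.5, 23.9, 24.6 and 19.4 CPM in PF livers. All EtOH libraries lay above all PF libraries, and EtOH 1 lay far above the others. The log2 change was 1.13 ± 0.22 (SE; adjusted p = 0.000956), and 0.75 was the lowest value when any single library was left out, still past the limit. Lamc1 had 24.8, 31.7, 30.9 and 36.7 CPM in EtOH+MBV livers, against 22.6, 23.7, 20.9 and 20.1 CPM in PF+MBV livers, which did not overlap but were not called (log2 0.51 ± 0.22, adjusted p = 0.0841). Lamb1, the common beta chain, had 8.01, 9.11, 5.54 and 7.22 CPM in EtOH+MBV livers, against 14.3, 13.2, 12.3 and 12.9 CPM in PF+MBV livers. It was 1.77-fold lower in EtOH+MBV livers (log2 -0.82 ± 0.19, adjusted p = 0.00397). Without MBVs it had 16.3, 12.7, 8.86 and 8.51 CPM in EtOH livers, against 10.5, 11.9, 9.77 and 9.01 CPM in PF livers, and the groups overlapped (log2 0.18, adjusted p = 0.476). Lamb2, the beta chain of vascular and muscle laminins, averaged 8.98 ± 0.936 CPM in EtOH+MBV, 8.29 ± 0.95 in EtOH, 10.2 ± 1.27 in PF+MBV and 7.55 ± 0.382 in PF livers, and Lamc3 averaged 5.26, 4.62, 4.59 and 5.10 CPM in these groups. The edgeR fit of all 16 libraries called neither in any comparison. DESeq2 called Lamb2 in PF+MBV against PF, as given with that comparison. So did the edgeR fit of those groups alone (adjusted p = 0.045).

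Of the integrin chains that pair into fibronectin and vitronectin receptors, Itgb3 and Itga5 rose in both ethanol comparisons and Itgav rose in EtOH against PF, while Itga8 and Itgb5 fell in EtOH+MBV against PF+MBV. Itgb3 (chr11:104608000-104670476, plus strand) had 25.7, 36.6, 26.4 and 32.8 CPM in EtOH livers, against 8.86, 9.02, 7.58 and 7.21 CPM in PF livers. With MBVs, EtOH+MBV livers had 19.4, 31.9, 26.9 and 28.6 CPM, against 10.3, 9.25, 14.8 and 11.7 CPM in PF+MBV livers. No ethanol library reached down to a pair-fed library. The log2 change was 1.90 ± 0.18 (SE; adjusted p = 2e-06) in EtOH against PF and 1.21 ± 0.17 (adjusted p = 0.000111) in EtOH+MBV against PF+MBV. Itga2b, the platelet partner of Itgb3, averaged 2.67 CPM in EtOH+MBV, 3.58 in EtOH, 2.40 in PF+MBV and 2.94 CPM in PF livers and was not called, and platelet markers summed to 8.83 to 13.0, 8.32 to 11.5, 8.71 to 10.4 and 9.47 to 14.7 CPM in these groups. Itgav, its partner in the vitronectin receptor, had 55.2, 42.9, 38.3 and 40.0 CPM in EtOH livers, against 28.8, 28.8, 27.5 and 25.0 CPM in PF livers. Without overlap, the rise was 1.60-fold (log2 0.68 ± 0.11, adjusted p = 0.00015). With MBVs Itgav had 30.0, 30.9, 34.4 and 32.6 CPM in EtOH+MBV livers, against 29.0, 31.4, 28.5 and 28.3 CPM in PF+MBV livers, which overlapped (log2 0.13, adjusted p = 0.377).

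Itga5, which with Itgb1 forms the classical fibronectin receptor (chr15:103344286-103366763, minus strand), had 49.4, 32.5, 32.0 and 35.1 CPM in EtOH livers, against 18.6, 21.4, 20.6 and 20.6 CPM in PF livers. In EtOH+MBV livers it had 31.0, 33.9, 35.3 and 39.8 CPM, against 25.8, 24.3, 22.7 and 25.1 CPM in PF+MBV livers. Neither comparison had an overlap. The rises were 1.83-fold (log2 0.88 ± 0.13, adjusted p = 7.78e-05) in EtOH against PF and 1.43-fold (log2 0.52 ± 0.13, adjusted p = 0.0051) in EtOH+MBV against PF+MBV, and the call in EtOH+MBV against PF+MBV ended when libraries were scaled by their totals alone (log2 0.37, adjusted p = 0.14). Its promoter window held 2 GGGCGG matches and 1 GAGGAA match, with a GC content of 55.6%.
Itga5 (minus strand of chr15:103366792-103367041): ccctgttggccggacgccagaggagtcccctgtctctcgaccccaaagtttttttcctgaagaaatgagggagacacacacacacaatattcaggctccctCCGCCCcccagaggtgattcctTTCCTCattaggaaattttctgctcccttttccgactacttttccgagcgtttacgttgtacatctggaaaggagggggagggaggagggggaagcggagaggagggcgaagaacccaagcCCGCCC

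Itga8, a receptor chain for fibronectin and nephronectin found on stellate cells and smooth muscle, had 2.85, 3.08, 3.95 and 2.26 CPM in EtOH+MBV livers, against 12.1, 12.1, 11.1 and 9.68 CPM in PF+MBV livers. The groups lay far apart, with a 3.70-fold fall (log2 -1.89 ± 0.32, SE, adjusted p = 0.000395). Without MBVs Itga8 had 9.92, 10.1, 3.89 and 3.10 CPM in EtOH livers, against 5.62, 7.89, 5.53 and 7.46 CPM in PF livers, so that EtOH libraries lay both above and below those of PF. Itgb5 had 74.3, 64.0, 67.9 and 65.1 CPM in EtOH+MBV livers, against 93.4, 86.7, 81.8 and 95.4 CPM in PF+MBV livers. Its 1.32-fold fall (adjusted p = 0.0297) ended when any of EtOH+MBV libraries 2, 3 or 4 or PF+MBV libraries 1, 2 or 4 was left out, with log2 changes of -0.36 to -0.41 in those fits. In EtOH and PF livers Itgb5 averaged 80.5 ± 17.0 and 65.9 ± 9.65 CPM (SD, n = 4 each) and was not called. Stellate cell and fibroblast markers summed to 316 to 417 CPM in EtOH+MBV, 349 to 536 in EtOH, 409 to 452 in PF+MBV and 363 to 394 CPM in PF livers. Of the 14 tested 2 rose and 3 fell in EtOH+MBV against PF+MBV, and 6 rose and 1 fell in EtOH against PF. Their part in the change of Itga8 was not tested. The edgeR fit of all 16 libraries did not call Itga4 or Itga9, which bind fibronectin, VCAM1 and tenascin, in any comparison. Itga9 averaged 23.2 ± 1.46 CPM in EtOH+MBV and 33.2 ± 12.0 CPM in EtOH livers, and Itga4 averaged 7.37 and 10.3 CPM in the same groups. Without EtOH 3 or EtOH 4, edgeR called Itga9 lower in EtOH+MBV than in EtOH livers (adjusted p = 0.0313 and 0.0289). The same fits called Itga9 in the interaction (log2 -0.80 and -0.79, adjusted p = 0.0411 and 0.0463). Fitted alone, the EtOH+MBV and PF+MBV libraries gave a call of Itga9 lower in EtOH+MBV livers (log2 -0.29, edgeR adjusted p = 0.014). Itga4 shares exon sequence with a gene on the other strand; reads over both are left out of the unstranded count, and the stranded counts of Itga4 sum to 1.13 times that count.

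Among the collagen receptor chains, Itga1 and Itga2 rose in both ethanol comparisons and Itga10 fell in EtOH against PF. Itga1 had 25.4, 25.1, 25.4 and 28.6 CPM in EtOH livers, against 19.4, 18.5, 20.2 and 20.6 CPM in PF livers. The EtOH+MBV livers had 24.4, 27.3, 27.0 and 24.5 CPM, against 19.3, 22.1, 18.1 and 16.3 CPM in PF+MBV livers. The changes were small but without overlap, at 1.33-fold in EtOH against PF (adjusted p = 0.00373) and 1.36-fold in EtOH+MBV against PF+MBV (adjusted p = 0.00246; 0.0726 with scaling by library totals alone). Itga2 was near the detection limit, with 0.823, 0.175, 0.201 and 0.645 CPM in EtOH livers, against 0, 0.188, 0.0499 and 0.124 CPM in PF livers. With MBVs, EtOH+MBV livers had 0.713, 2.01, 1.08 and 1.51 CPM, against 0.0588, 0.108, 0.260 and 0.115 CPM in PF+MBV livers. The EtOH and PF libraries overlapped, and that call (5.01-fold, adjusted p = 0.0172) ended without EtOH 1 (log2 1.86, adjusted p = 0.0708) and without PF 3 (log2 2.11, adjusted p = 0.0525). The EtOH+MBV libraries lay clear of the PF+MBV libraries (9.15-fold higher, log2 3.19 ± 0.60, adjusted p = 0.000897). Itga2 passed the filter on low counts through ethanol libraries, 6 of which reached the filter level and none of the pair-fed ones, so its direction is partly set by that filter. Itga10 had 0.968, 1.86, 3.42 and 1.48 CPM in EtOH livers, against 4.09, 2.82, 6.83 and 5.34 CPM in PF livers, a 2.50-fold fall (adjusted p = 0.00833) with 1 EtOH library above the lowest PF library. In EtOH+MBV and PF+MBV livers Itga10 averaged 2.24 ± 0.594 and 3.42 ± 0.944 CPM (SD, n = 4 each; adjusted p = 0.198).

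Among the laminin receptor chains, Itga7 rose in both ethanol comparisons, Itga6 rose in EtOH against PF, and Itga3 fell in EtOH+MBV against PF+MBV. Itga7 had 13.0, 14.5, 18.2 and 21.2 CPM in EtOH livers, against 8.74, 7.71, 9.72 and 8.26 CPM in PF livers. In EtOH+MBV livers it had 16.3, 17.1, 16.4 and 17.4 CPM, against 7.76, 6.76, 7.76 and 9.63 CPM in PF+MBV livers. No library of the ethanol groups overlapped those of the pair-fed groups, with rises of 1.94-fold (adjusted p = 0.000139) in EtOH against PF and 2.11-fold (adjusted p = 8.78e-05) in EtOH+MBV against PF+MBV. Itga7 overlaps Mettl7b, which lies on the other strand, by 9 bases; reads over both are left out of the unstranded count, and the stranded counts of Itga7 sum to 1.39 times that count. Itga6 had 11.3, 3.72, 3.49 and 2.26 CPM in EtOH livers, against 1.77, 0.940, 2.34 and 2.36 CPM in PF livers. Its rise of 2.81-fold (log2 1.49 ± 0.42, adjusted p = 0.0102) rested on EtOH 1, and without that library the log2 change was 0.76 (adjusted p = 0.0545). With MBVs Itga6 averaged 1.5 ± 0.138 CPM in EtOH+MBV and 2.15 ± 0.655 CPM in PF+MBV livers. Itga3 had 8.28, 7.63, 6.75 and 9.24 CPM in EtOH+MBV livers, against 11.6, 14.2, 10.9 and 15.3 CPM in PF+MBV livers, with no overlap and a 1.63-fold fall (adjusted p = 0.0112). In EtOH and PF livers Itga3 averaged 10.6 ± 2.89 and 10.0 ± 2.21 CPM. Itgb4, the hemidesmosome partner of Itga6, averaged 0.667 CPM in EtOH+MBV, 0.768 in EtOH, 0.846 in PF+MBV and 0.898 CPM in PF livers, and Itgb1 averaged 190 ± 11.9, 231 ± 24.2, 203 ± 5.93 and 206 ± 6.42 CPM in these groups. The edgeR fit of all 16 libraries called neither in any comparison. DESeq2 called Itgb1 in EtOH+MBV against EtOH, as given with that comparison. So did the edgeR fit without EtOH 4 (adjusted p = 0.0437).

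Among the leukocyte integrin chains, Itgam rose and Itgal fell in both ethanol comparisons, and the common beta chain Itgb2 was not called. Itgam, the alpha chain of the complement receptor on neutrophils and monocytes, had 4.45, 2.91, 2.62 and 2.71 CPM in EtOH livers, against 1.59, 0.626, 2.24 and 1.86 CPM in PF livers. No overlap was present, but the 2-fold rise (log2 1.0 ± 0.33, adjusted p = 0.026) ended without EtOH 1, PF 1 or PF 2, with log2 changes of 0.78, 0.99 and 0.74. In EtOH+MBV livers Itgam had 1.86, 4.02, 3.76 and 3.08 CPM, against 1.65, 1.35, 1.93 and 1.15 CPM in PF+MBV livers, an overlap of a single library pair. That rise of 2.08-fold (adjusted p = 0.0219) ended without EtOH+MBV 2 or 3 or PF+MBV 2 or 4, with log2 changes of 0.93 to 1.0. Neutrophil markers summed to 3.73 to 12.1 CPM in EtOH+MBV, 3.32 to 14.6 in EtOH, 3.64 to 4.54 in PF+MBV and 3.73 to 13.4 CPM in PF livers, and monocyte markers to 320 to 384, 322 to 432, 346 to 373 and 399 to 466 CPM in these groups. Of 10 monocyte markers, 3 rose and 3 fell in EtOH against PF, and of 6 neutrophil markers none was called there. In EtOH+MBV against PF+MBV, 2 monocyte markers rose and 3 fell, and 1 neutrophil marker rose. The part of either list in the change of Itgam was not tested.

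Itgal, the alpha chain of the lymphocyte receptor for ICAMs, had 15.1, 8.14, 6.85 and 8.96 CPM in EtOH livers, against 16.9, 18, 16.1 and 12.5 CPM in PF livers. The EtOH+MBV livers had 9.05, 10.9, 9.36 and 7.29 CPM, against 16.3, 13.7, 11.7 and 14.0 CPM in PF+MBV livers. EtOH 1 lay within the PF range, and the other ethanol libraries lay below all pair-fed ones. The falls were 1.62-fold in EtOH against PF (adjusted p = 0.0139; 0.0965 with scaling by library totals alone) and 1.52-fold in EtOH+MBV against PF+MBV (adjusted p = 0.0313). The fall in EtOH+MBV against PF+MBV ended without EtOH+MBV 3 or 4 or PF+MBV 1, 2 or 4, with log2 changes of -0.51 to -0.61. The T and NK cell markers summed to 2.32 to 2.93 CPM in EtOH+MBV, 1.60 to 2.95 in EtOH, 4.41 to 5.61 in PF+MBV and 4.39 to 5.64 CPM in PF livers, and of the 3 tested 1 fell in EtOH against PF and 2 fell in EtOH+MBV against PF+MBV. Kupffer cell markers summed to 375 to 502 CPM in EtOH+MBV, 315 to 654 in EtOH, 620 to 751 in PF+MBV and 715 to 987 CPM in PF livers, and of the 12 tested 1 rose and 4 fell in EtOH against PF and 2 rose and 6 fell in EtOH+MBV against PF+MBV; the part of either list in the fall of Itgal was not tested. Per kilobase, the ratio of Itgal to Itgam was 2.59, 2.14, 2.00 and 2.53 in EtOH livers, against 8.12, 21.9, 5.47 and 5.12 in PF livers. It was 3.71, 2.08, 1.91 and 1.81 in EtOH+MBV livers, against 7.57, 7.77, 4.65 and 9.33 in PF+MBV livers, so that no ethanol library reached the pair-fed range.

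Itgae, the E-cadherin receptor chain of intraepithelial lymphocytes and some dendritic cells, had 0.242, 0.116, 0.0671 and 0 CPM in EtOH livers, against 0.794, 0.877, 0.349 and 0.435 CPM in PF livers. The fall of 5.04-fold (log2 -2.33 ± 0.69, adjusted p = 0.0131) grew without EtOH 1 (log2 -3.13, adjusted p = 0.00777). Itgae passed the filter through pair-fed libraries, 4 of which reached its level and none of the ethanol ones, so its direction is partly set by the filter. Dendritic cell markers summed to 9.99 to 14.5 CPM in EtOH+MBV, 10.8 to 15.5 in EtOH, 14.2 to 15.8 in PF+MBV and 11.4 to 15.5 CPM in PF livers, and none of the 4 tested was called in EtOH against PF; their part in the fall of Itgae was not tested. In EtOH+MBV and PF+MBV livers it averaged 0.211 ± 0.133 and 0.619 ± 0.366 CPM (SD, n = 4 each; adjusted p = 0.0689). Itgb7, which pairs with Itgae and Itga4, averaged 1.23 CPM in EtOH+MBV, 1.39 in EtOH, 1.88 in PF+MBV and 2.16 CPM in PF livers and was not called. Itgax, a chain of dendritic cells and macrophages, had 5.03, 1.34, 1.28 and 0.580 CPM in EtOH livers and a mean of 1.33 CPM in PF livers, and Itgb2 averaged 12.1 CPM in EtOH and 9.59 CPM in PF livers, with 20.8 CPM in EtOH 1. In EtOH+MBV and PF+MBV livers Itgax averaged 0.655 and 1.43 CPM and Itgb2 9.48 and 8.73 CPM. The edgeR fit of all 16 libraries called neither in any comparison. DESeq2 called Itgax lower in EtOH+MBV than in EtOH livers (log2 -1.68, DESeq2 adjusted p = 0.0363), and was not run without EtOH 1. The edgeR fit without EtOH 4 also called that fall (adjusted p = 0.022). The edgeR fit of the EtOH+MBV and PF+MBV libraries alone called Itgax lower in EtOH+MBV livers (log2 -1.11, adjusted p = 0.0132).

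**Figure D4:**
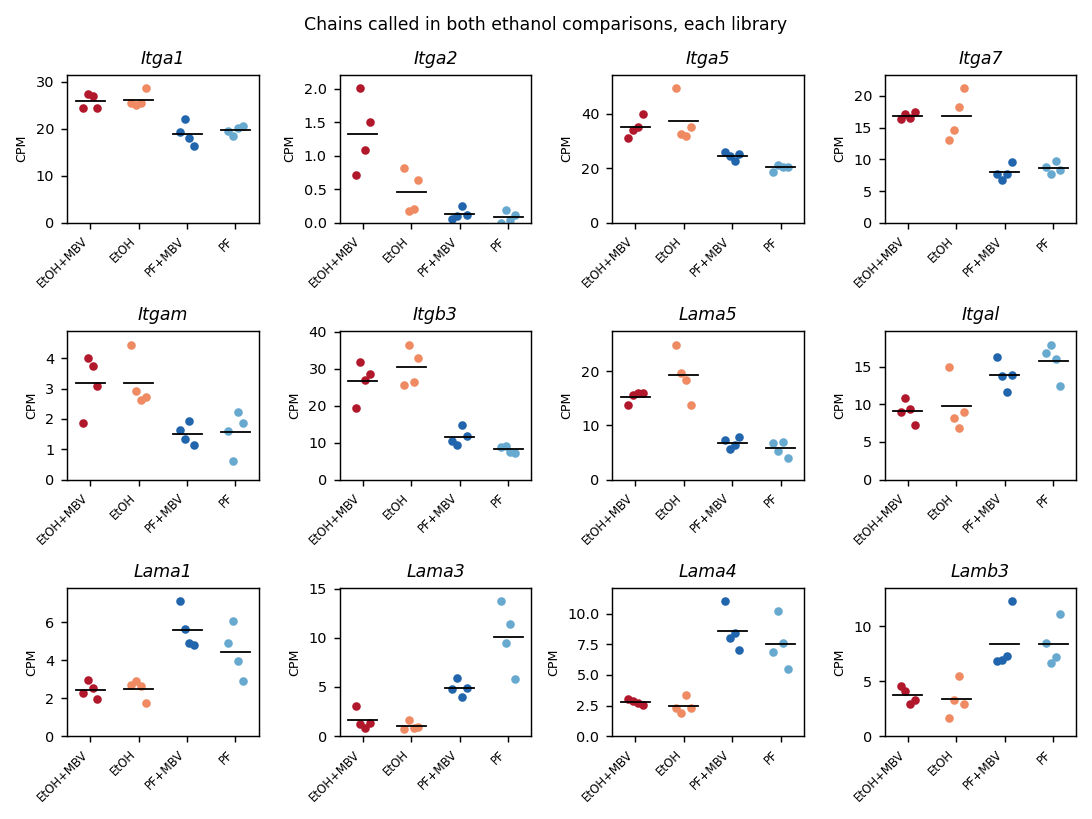
CPM per library of the 12 chains called in the same direction in both ethanol comparisons, with 1 panel per gene, points for libraries and a bar for the group mean. The ethanol groups lie above the pair-fed groups for Itgb3 and Lama5 and below them for Lama3 and Lama4, without overlap.

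MBVs given on the ethanol diet left most chains uncalled: 2 of 33, Itga6 and Itgav, fell in EtOH+MBV against EtOH livers and none rose, which is 6.06% of the chains against 2.69% of all genes (1.24% higher and 1.45% lower). This comparison uses the same EtOH libraries as that of EtOH against PF, so a high EtOH library moves both in opposite directions. Itgav had 30.0, 30.9, 34.4 and 32.6 CPM in EtOH+MBV livers, against 55.2, 42.9, 38.3 and 40.0 CPM in EtOH livers, with no overlap and a 1.38-fold fall (log2 -0.47 ± 0.11, adjusted p = 0.0337). Itga6 had 1.37, 1.47, 1.46 and 1.70 CPM in EtOH+MBV livers, against 11.3, 3.72, 3.49 and 2.26 CPM in EtOH livers, with no overlap and a 3.49-fold fall (log2 -1.80 ± 0.43, adjusted p = 0.0377). Both calls ended without EtOH 1, at log2 -0.33 (adjusted p = 0.0872) for Itgav and -1.06 (adjusted p = 0.109) for Itga6. The call of Itgav ended in 7 of the 16 fits that left out a single library, namely without EtOH 1, EtOH 2, any single EtOH+MBV library or PF+MBV 3. That of Itga6 ended in 11, without PF 1, EtOH 1, EtOH 2 or any single library of the MBV groups. Both ended when only the EtOH+MBV and EtOH libraries were fitted (adjusted p = 0.255 and 0.24). Itgb1 did not overlap either, with 176, 202, 185 and 197 CPM in EtOH+MBV livers, against 265, 231, 219 and 209 CPM in EtOH livers, and missed the limit (log2 -0.28, adjusted p = 0.0912; DESeq2 adjusted p = 0.0143). These 3 chains are the ones without overlap, against 7.6% of all genes. The median log2 change over the chains was -0.22, against 0.01 over all genes. In the same comparison 4 of 10 cell cycle genes fell and none rose, and their sum was 3.82 to 7.98 CPM in EtOH+MBV and 7.48 to 139 CPM in EtOH livers; its part in these changes was not tested.

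In pair-fed livers the edgeR fit of all 16 libraries called no chain in PF+MBV against PF. It called 1.78% of all genes there (0.752% higher and 1.03% lower). At an unadjusted p under 0.05, 6 of the 33 chains differed by edgeR, namely Itga5, Itga8, Itgb3, Itgb5, Lama3 and Lamb2, against 2181 of the 12901 genes. DESeq2 called 3 of these chains. The edgeR fit without both EtOH 1 and EtOH+MBV 1 called the same chains. Its adjusted p was 0.0162 for Lama3, 0.0345 for Lamb2 and 0.0272 for Itgb5. The edgeR fit of the PF+MBV and PF libraries alone called these chains and Itga8. Lama3 had 4.76, 5.89, 4.01 and 4.87 CPM in PF+MBV livers, against 13.7, 9.46, 11.5 and 5.78 CPM in PF livers (log2 -1.05 ± 0.33, adjusted p = 0.107; DESeq2 adjusted p = 0.0398). Lamb2 had 10.9, 9.95, 11.4 and 8.54 CPM in PF+MBV livers, against 8.01, 7.2, 7.73 and 7.27 CPM in PF livers (log2 0.43 ± 0.13, adjusted p = 0.091; DESeq2 adjusted p = 0.046). Lamb2 did not overlap between the groups, and Lama3 overlapped through PF+MBV 2 and PF 4. Itgb5 had 93.4, 86.7, 81.8 and 95.4 CPM in PF+MBV livers, against 58.1, 78.9, 67.5 and 59.1 CPM in PF livers, also without overlap (log2 0.44, adjusted p = 0.103; DESeq2 adjusted p = 0.0462). In all, 8 chains did not overlap, against 15% of all genes.

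The test of whether the difference between MBV and vehicle livers differed between the diets gave 3 chains by edgeR, all with a lower MBV difference on ethanol, which is 9.09% of the chains against 4.11% of all genes (2.02% higher and 2.09% lower). They were Itga8 (log2 -1.93 ± 0.44, SE, adjusted p = 0.0261), Lamb1 (-1.0 ± 0.27, adjusted p = 0.048) and Itgav (-0.55 ± 0.15, adjusted p = 0.048). DESeq2 called these and 3 more, Itga6 (log2 -2.01) and Itgb5 (log2 -0.69) in the same direction and Lama3 in the opposite one (log2 1.69), with DESeq2 adjusted p = 0.0212, 0.0156 and 0.0216. For Itga6, EtOH 1 lay far above its group at 11.3 CPM, and DESeq2 was not run without it. The edgeR fit without EtOH 4 also called Itga6 in this test (log2 -2.25, adjusted p = 0.0246). Itga8 averaged 3.04 ± 0.700 CPM in EtOH+MBV and 6.76 ± 3.78 in EtOH livers, while on the pair-fed diet it averaged 11.2 ± 1.14 CPM in PF+MBV and 6.63 ± 1.22 in PF livers. Lamb1 averaged 7.47 ± 1.5 CPM in EtOH+MBV and 11.6 ± 3.68 in EtOH livers, against 13.2 ± 0.846 CPM in PF+MBV and 10.3 ± 1.23 in PF livers. For both chains the mean was lower with MBVs on ethanol and higher with MBVs on the pair-fed diet. In the edgeR fit of all 16 libraries neither change passed the limit within a diet (Itga8 adjusted p = 0.0595 and 0.2, Lamb1 0.0792 and 0.361). DESeq2 called both lower in EtOH+MBV than in EtOH livers, at log2 -1.17 for Itga8 (DESeq2 adjusted p = 0.0113) and -0.65 for Lamb1 (DESeq2 adjusted p = 0.0326). The edgeR fit of the PF+MBV and PF libraries alone called Itga8 higher in PF+MBV livers (log2 0.76, adjusted p = 0.0115). The call of Itga8 ended without PF 1, PF 3, EtOH 2, PF+MBV 1 or PF+MBV 2, with log2 values of -1.68 to -1.89. That of Lamb1 ended in 11 of the 16 fits without a single library and held without PF 2, EtOH 3, EtOH 4, EtOH+MBV 1 or EtOH+MBV 2; its log2 value was -0.78 without EtOH 1. That of Itgav ended in 13 such fits and held without PF 2, EtOH 3 or EtOH 4; its log2 value was -0.42 without EtOH 1. Of the 14 stellate cell and fibroblast markers, 2 were also lower in this test and none higher, and their part in the result was not tested.

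**Figure D5:**
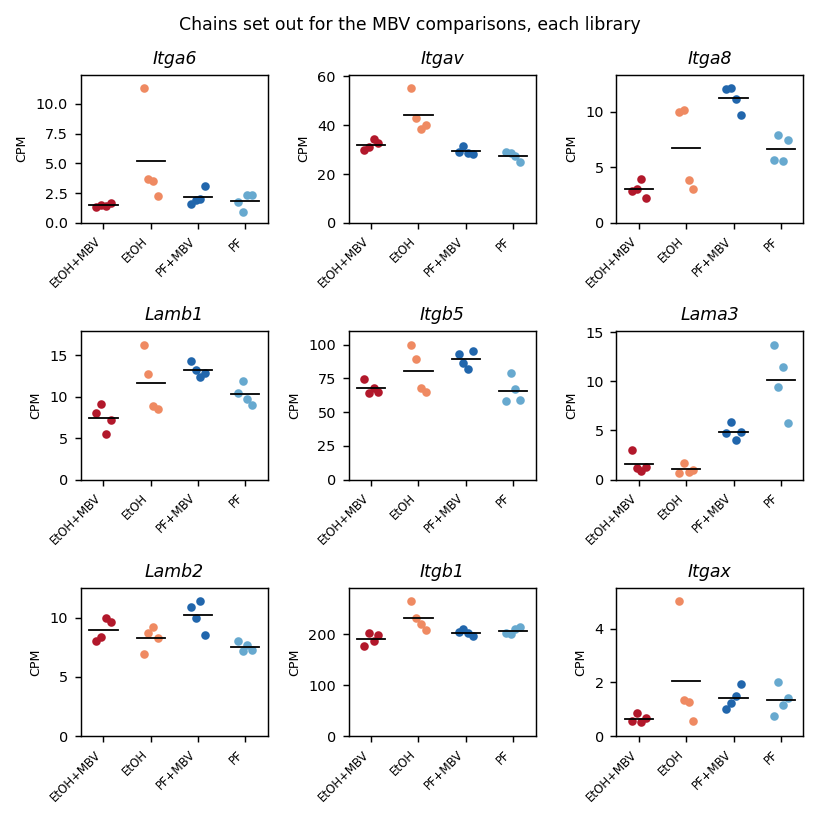
CPM per library in the 4 groups, with points for libraries and bars for group means. Itga6, Itgav, Itga8 and Lamb1 are the 4 chains called in EtOH+MBV against EtOH or in the diet by MBV test. The other 5, Itgb5, Lama3, Lamb2, Itgb1 and Itgax, were called in the MBV comparisons by DESeq2. The edgeR fit of all 16 libraries did not call them there. Itga6 in EtOH 1 reaches 11.3 CPM, and the EtOH libraries of Itga8 lie at 9.92, 10.1, 3.89 and 3.10 CPM.

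Genes that work with these chains were also read from lists, which share some genes, among them Col4a1 and Col4a2 as both basement membrane genes and integrin ligands. In EtOH against PF, 20.4% of all tested genes rose and 19.5% fell, and in EtOH+MBV against PF+MBV 19.2% rose and 16.7% fell. These shares stand beside the counts of every list below. Of 30 integrin adaptors and signalling genes, 12 rose and 2 fell in EtOH against PF (median log2 change 0.17). In EtOH+MBV against PF+MBV 2 of them rose and 6 fell (median -0.11). The focal adhesion scaffold Pxn averaged 86.5 ± 10.1 CPM in EtOH and 40.9 ± 2.55 CPM in PF livers (2.12-fold, adjusted p = 1.46e-05), and the actin-linked adaptor Zyx rose 1.93-fold (adjusted p = 0.000397). Tns1, which ties integrin tails to actin, rose 2.16-fold (adjusted p = 0.000616), and Csk, the kinase that restrains Src, averaged 33.5 CPM in EtOH and 62.2 CPM in PF livers (log2 -0.89 ± 0.14, adjusted p = 0.000158). Pxn and Zyx rose and Csk fell in EtOH+MBV against PF+MBV too, with log2 changes of 0.75, 0.66 and -0.90 (adjusted p = 0.000425, 0.00629 and 0.000202), while Tns1 was not called there (log2 0.37, adjusted p = 0.166).

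Of 21 other basement membrane genes, 8 rose and 2 fell in EtOH against PF, and 5 rose and 6 fell in EtOH+MBV against PF+MBV. Of all tested genes 39.8% and 35.9% were called in these comparisons. The laminin to collagen linker Nid1 averaged 123 ± 31.9 CPM in EtOH and 20.7 ± 2.70 CPM in PF livers (5.95-fold, adjusted p = 3.2e-05). With MBVs Nid1 averaged 102 ± 52.8 CPM in EtOH+MBV and 27.0 ± 1.59 CPM in PF+MBV livers (3.77-fold, adjusted p = 0.000441). The network collagen chains Col4a1 and Col4a2 rose 2.86-fold and 2.25-fold in EtOH against PF (adjusted p = 3.25e-06 and 2.3e-05), and Sparc, a collagen-binding matrix protein, rose 1.62-fold (adjusted p = 0.000993). In EtOH+MBV against PF+MBV, Col4a1 rose 1.61-fold (adjusted p = 0.00226) and Col4a2 by 0.72 on the log2 scale (adjusted p = 0.00142), while Sparc had a log2 change of -0.19 (adjusted p = 0.303). Of 7 laminin receptors that are not integrins, 5 rose and none fell in EtOH against PF, and 4 rose and 1 fell in EtOH+MBV against PF+MBV. Bcam, the receptor of the Lama5 chain, averaged 13.2 ± 2.99 CPM in EtOH and 4.59 ± 0.563 CPM in PF livers (2.86-fold, adjusted p = 3.74e-05). In EtOH+MBV livers Bcam averaged 17.4 ± 4.02 CPM, against 4.18 ± 0.738 CPM in PF+MBV livers (4.16-fold, adjusted p = 7.77e-06). Mcam, another adhesion molecule that binds laminin, rose 2.55-fold in EtOH against PF (adjusted p = 4.34e-06) and was lower in EtOH+MBV than in EtOH livers (log2 -0.56, adjusted p = 0.0402). The call of Mcam in EtOH+MBV against EtOH ended in 13 of the 16 fits without a single library and held without PF 2, EtOH 3 or EtOH 4; without EtOH 1 it was -0.48 (adjusted p = 0.118). The heparan sulfate proteoglycan Sdc4 rose 2.01-fold (adjusted p = 0.000169) and Rpsa, a ribosomal protein that also serves as a laminin receptor, 1.5-fold (adjusted p = 0.000178) in EtOH against PF. In EtOH+MBV against PF+MBV, Sdc4 was not called (log2 0.41, adjusted p = 0.0553) and Rpsa rose 1.49-fold (adjusted p = 0.000291).

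Of 27 matrix and plasma ligands, 13 rose and 1 fell in EtOH against PF, and 8 rose and 4 fell in EtOH+MBV against PF+MBV. In EtOH+MBV against EtOH 3 of them fell. Of all tested genes 39.8%, 35.9% and 2.69% were called in these comparisons. Thbs1, a matricellular protein that Itgb3 receptors bind, averaged 18.6 ± 13.3 CPM in EtOH and 1.31 CPM in PF livers (14.1-fold, adjusted p = 2.19e-05) and was lower in EtOH+MBV than in EtOH livers (log2 -2.25, adjusted p = 0.0208). It was not called in EtOH+MBV against PF+MBV (log2 0.82, adjusted p = 0.173). Without EtOH 1 the log2 change of Thbs1 was 3.22 in EtOH against PF (adjusted p = 1.45e-05) and -1.65 in EtOH+MBV against EtOH (adjusted p = 0.0424), and its call in EtOH+MBV against EtOH ended without EtOH+MBV 3. Tgfb3, whose latent form carries an RGD motif for Itgav receptors, averaged 10.0 CPM in EtOH and 1.24 CPM in PF livers (8.10-fold, adjusted p = 1.8e-06) and was likewise lower in EtOH+MBV than in EtOH livers (log2 -1.46, adjusted p = 0.018). Without EtOH 1 that change of Tgfb3 was -1.27 (adjusted p = 0.0373), and its call ended without EtOH+MBV 3. Of 9 cell surface ligands, 5 rose and none fell in EtOH against PF, and 4 rose and none fell in EtOH+MBV against PF+MBV. Icam1, the endothelial ligand of the Itgal and Itgam receptors, averaged 21.6 CPM in EtOH and 7.24 CPM in PF livers (2.99-fold, adjusted p = 4.36e-05), and 16.6 CPM in EtOH+MBV and 6.57 CPM in PF+MBV livers (2.51-fold, adjusted p = 0.000287). The junction molecules F11r and Jam2 rose 1.84-fold and 1.92-fold, and Cd47, a partner of Itgb3 receptors, 1.63-fold in EtOH against PF (adjusted p = 0.000114, 0.00417 and 0.000206). All 3 also rose in EtOH+MBV against PF+MBV (adjusted p = 0.00314 for F11r, 0.00095 for Jam2 and 0.0333 for Cd47). The call of Cd47 ended when any of EtOH+MBV libraries 2, 3 or 4 or PF+MBV libraries 1, 3 or 4 was left out. The other calls of partner genes printed for EtOH against PF and for EtOH+MBV against PF+MBV held in all 16 fits without a single library. These genes had the smallest p of their list in EtOH against PF, so that choice partly sets the result in that comparison. Leaving out libraries for these genes was chosen after seeing the data. By edgeR the interaction was called for Col4a1, Sparc, Mcam, Thbs1 and Tgfb3, and for no other partner gene named here. Their log2 values were -0.83, -0.88, -0.93, -2.99 and -1.89 (adjusted p = 0.0387, 0.0239, 0.0209, 0.0234 and 0.0188). Of all tested genes 4.11% were called in that test. It uses the same EtOH and PF libraries by which these genes were chosen, which partly sets its result.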

How the data were processed

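Liver RNA of 4 groups with 4 libraries each was analysed from the tables of reads counted per gene, in which the authors deposited unscaled count values (whole numbers, with STAR's own lines for unmapped and ambiguous reads). Trimmomatic, STAR and the build mm10 were used per the submitters' processing notes; the sources used here state no version, setting or annotation. The unstranded column was taken, since the stranded columns split the reads evenly (50.58% to 51.79% in 1 of them), and reads over overlapping genes are ambiguous in it and left out. Reads assigned to no gene feature (9.397% to 10.87%) and ambiguous reads (1.348% to 1.693%) were left out of library sizes, and unmapped reads (11.57% to 19.89%) too.

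Genes were kept by filterByExpr with a minimum count of 10, scaled by TMM and fitted with edgeR 4.0.16 (quasi-likelihood, R 4.3.3) with 1 mean per group; the procedure was tested on simulated data. The comparisons were EtOH+MBV against PF+MBV, EtOH+MBV against EtOH, EtOH against PF, PF+MBV against PF, and the interaction. Exon lengths and gene positions came from GENCODE vM21 (GRCm38), which held all 37 chains. Alternatives were DESeq2 1.42.0, other scalings, no filter, a replicate block, fits of a comparison's groups alone and leaving out libraries. The chains and lists were chosen with earlier results of these data known. Chains called in any comparison are given library by library, other tested chains by mean, and up to 4 genes of each partner list by smallest p in EtOH against PF. The labels give no batch. Of the tested chains, 1 that was called in no comparison is counted but not reported here.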

Additional observations from a re-analysis of the deposited data

Results flagged for a closer look

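In 4 cases a single library lay apart from the other 3 of its group by more than Dixon's 95% critical value for 4 samples. For Itga6, EtOH 1 had 11.3 CPM, with EtOH 2 to 4 between 2.26 and 3.72 CPM. For Itgam, EtOH 1 had 4.45 CPM, with EtOH 2 to 4 between 2.62 and 2.91 CPM. For Itga1, EtOH 4 had 28.6 CPM, with EtOH 1 to 3 between 25.1 and 25.4 CPM. For Lamb3, PF+MBV 4 had 12.3 CPM, with PF+MBV 1 to 3 between 6.88 and 7.34 CPM. Chance flags about 1 in 20 groups, and 88 were examined, so that 4 is no more than chance gives.

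For 3 chains the difference between MBV and vehicle livers differed between the ethanol and the pair-fed diet by the edgeR interaction test. The log2 interaction was -1.93 for Itga8, -1.0 for Lamb1 and -0.55 for Itgav. None of these calls held in all fits that left out a single library.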

How the results depend on the processing

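No call changed direction under any alternative that was run. With each library left out in turn, called chains ranged from 14 to 19 in EtOH against PF, 13 to 18 in EtOH+MBV against PF+MBV, 0 to 7 in EtOH+MBV against EtOH, 0 to 1 in PF+MBV against PF and 0 to 6 in the interaction. Over all genes the ranges were 4268 to 5435, 3412 to 5512, 8 to 1169, 45 to 689 and 168 to 1088 in the same order. Whichever library was left out, 14 of 18 calls in EtOH against PF and 13 of 16 in EtOH+MBV against PF+MBV held, against 0 of 2 in EtOH+MBV against EtOH and 0 of 3 in the interaction. The calls that held include Itgae in EtOH against PF and Itga2 in EtOH+MBV against PF+MBV. For these chains the direction is partly set by the filter on low counts, so their calls add no support. Without EtOH+MBV 3, the 347 genes called in EtOH+MBV against EtOH became 8, and without EtOH 4 they became 1169.

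In EtOH+MBV against EtOH, where 2 chains and 347 genes were called, DESeq2 called 6 and 905, scaling by library totals 1 and 194, the fit without both EtOH 1 and EtOH+MBV 1 0 and 180, and the fit of those groups alone 0 and 0. In EtOH+MBV against PF+MBV, with 16 chains and 4633 genes, the fit without both libraries called 19 and 6250. In PF+MBV against PF, with 0 chains and 230 genes, DESeq2 called 3 and 654. There the fit without both libraries called 3 and 1022, and the groups alone 4 and 1119. In the interaction, with 3 chains and 530 genes, DESeq2 called 6 and 1113, library totals 1 and 350, no filter 1 and 469, and the fit without both libraries 2 and 887; groups alone cannot be fitted there. With the replicate number as a block, 17 chains and 4883 genes were called in EtOH against PF, and 16 and 4475 in EtOH+MBV against PF+MBV. That fit called 2 chains and 514 genes in the interaction, and 0 chains and 205 genes in EtOH+MBV against EtOH. Same-numbered libraries of different groups deviated together with correlations of only -0.124 to 0.170, against -0.243 to 0.327 for different numbers, so not every library correlated best with its own number and the numbers were not taken as pairs. In these cases the cause was not tested. Library totals put the median log2 change of all genes at -0.11 in EtOH+MBV against EtOH, -0.15 in EtOH+MBV against PF+MBV and -0.18 in the interaction. Chains under about 1 CPM (among them Itga2, Itgae and Itgb4) rest on few reads per library, and differences in them were measured with wide errors.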
